A study of Mus musculus with 28 samples.

Results

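Livers labelled MDKO, in which both NFATc3 and ASK1 are knocked out, were compared with livers labelled ASK1-MKO, in which ASK1 alone is knocked out in macrophages. The comparison asks what the loss of NFATc3 changes where ASK1 is already missing. It uses 4 MDKO and 4 ASK1-MKO livers, chosen by their labels, out of 16 livers and 28 libraries in all, and every gene that passed a filter on low counts. All the mice were male, were 8 weeks old when a methionine- and choline-deficient diet began, and stayed on it for 4 weeks before the livers were taken. The other livers were labelled Lyz2-Cre, the controls, and NFATc3-MKO, with 4 in each group. Lyz2-Cre drives recombination in myeloid cells, while the RNA came from whole liver. The labels do not give the strain, the floxed alleles or the hour of collection, and nothing in them says whether the 4 livers of a group came from separate litters or cages. Group names below always mean the livers so labelled.

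NFATc3 is a transcription factor that calcineurin moves into the nucleus when calcium rises. ASK1, encoded by Map3k5, is a kinase that passes oxidative and inflammatory stress on to the JNK and p38 MAP kinases. Without dietary methionine and choline, the liver cannot export enough fat as lipoprotein and develops steatohepatitis, in which resident and recruited macrophages take part. Most liver RNA comes from hepatocytes, and in bulk RNA fewer cells of a type cannot be told apart from less RNA per cell.

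The MDKO libraries lay close to the Lyz2-Cre controls. Over 5141 genes with a mean above 20 CPM (counts scaled to a common library total), the spread of log2 CPM differences, as a median absolute deviation, was 0.098 to 0.154 between each MDKO library and the Lyz2-Cre library of the same number. Each was the other's nearest library among all 16. Between libraries of 1 group this spread was 0.177 to 0.416 within MDKO, 0.183 to 0.401 within Lyz2-Cre and 0.159 to 0.313 within ASK1-MKO, and between MDKO and ASK1-MKO it was 0.243 to 0.569. The same-numbered MDKO and Lyz2-Cre libraries still differed beyond counting noise, with a median chi-square of 1.28 to 3.43 times that of sampling alone, against 3.29 to 18 within MDKO. MDKO 1 lay 0.37 to 0.42 from the other MDKO libraries. NFATc3-MKO 3 lay 0.417 or more from every other library. That library is in neither of the 2 groups compared. It enters the shared spread, the NFATc3-MKO ranges, NFATc3-MKO minus Lyz2-Cre and the difference of differences. The labels give no pairing of these animals, and the cause of the likeness was not tested. In edgeR's quasi-likelihood test, 0 genes differed between MDKO and Lyz2-Cre at an adjusted p under 0.05, and 35 had an unadjusted p under 0.05. That fit ignores the likeness of same-numbered libraries, so tests that use it were added after seeing the data. Voom with these pairs correlated also called 0 genes, with 483 at an unadjusted p under 0.05, as did edgeR on the 8 livers with the numbers as a block, with 186 of 12746. DESeq2 and voom with quality weights called 0, with 22 and 193 at an unadjusted p under 0.05. Because of this likeness, the Lyz2-Cre and NFATc3-MKO ranges are given beside several of the leading genes.

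**Figure D1:**
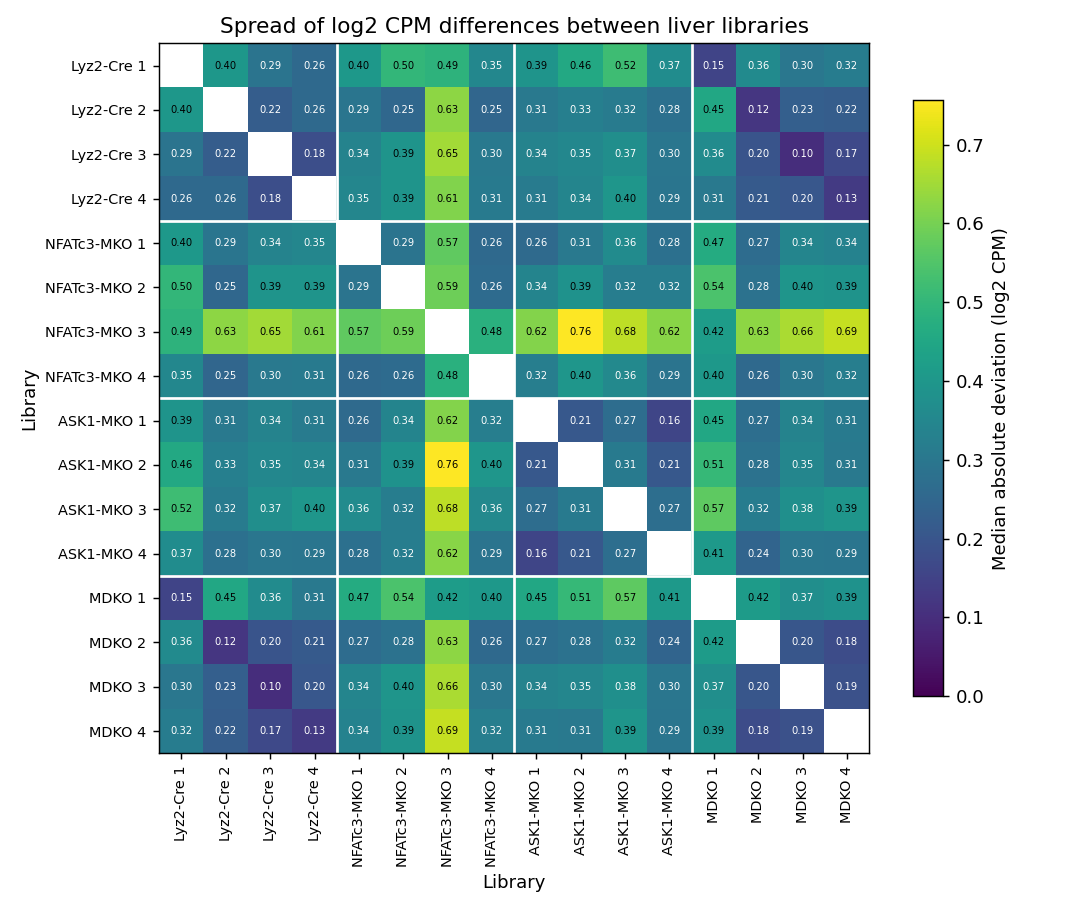
Each cell is the median absolute deviation of log2 CPM differences between 2 liver libraries, over 5141 genes, with low values dark. The dark cells off the group blocks join each MDKO library to the Lyz2-Cre library of the same number, at 0.098 to 0.154, and MDKO 1 lies apart from the other MDKO libraries.

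Total counts were 25764945 to 29126663 in the ASK1-MKO livers. They were 23071821 to 24702209 in 3 MDKO livers and 8912117 in MDKO 3, so low values are least certain there. The hepatocyte markers, 15 of which were measured, summed to 124700 to 144800 CPM in the ASK1-MKO livers and 139300 to 149000 CPM in the MDKO livers, which fits the labelled tissue.

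The targeted genes came first. Nfatc3 (chr8:106058840-106130537, mm10) stood at 38.0, 37.3, 37.8 and 36.4 CPM in the ASK1-MKO livers and at 29.8, 37.5, 39.9 and 39.1 CPM in the MDKO livers. The groups overlapped, and 3 of the 4 livers labelled as lacking NFATc3 stood within or above the ASK1-MKO range (log2 difference -0.03 ± 0.14 SE, edgeR adjusted p = 0.925, two-sided exact permutation p = 0.943). Map3k5 (chr10:19934472-20142753) stood at 41.7, 55.1, 45.4 and 42.8 CPM in the ASK1-MKO livers and at 28.2, 32.3, 29.2 and 32.4 CPM in the MDKO livers. Both groups are labelled as lacking ASK1, yet every ASK1-MKO liver lay above every MDKO liver, and above the Lyz2-Cre range of 27.7 to 32.7 CPM. The difference was -0.60 ± 0.15 (log2 ± SE, edgeR adjusted p = 0.0252, two-sided exact permutation p = 0.0286, the smallest that 70 assignments allow). The Map3k5 call was lost without ASK1-MKO 2, MDKO 1, MDKO 3 or MDKO 4 (edgeR adjusted p up to 0.0856), and without the Lyz2-Cre livers in the fit (0.0551). The table gives totals over each gene, so reads from a deleted exon cannot be separated, and a loss limited to macrophages need not lower a whole-liver total.

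Among 13309 genes tested, 1028 (7.72%) were called at an adjusted p under 0.05 by edgeR's quasi-likelihood test with the Benjamini-Hochberg adjustment. Of these, 461 (3.46%) were higher and 567 (4.26%) lower in the MDKO livers, and 164 and 115 of them differed by at least 2-fold. The livers of the 2 groups did not overlap in 2405 genes (18.1%), among them 962 of the 1028 called. The median log2 difference over all genes was 0.03. The number called fell to 547 without ASK1-MKO 1, to 684 without ASK1-MKO 2, and to 563 without either MDKO 3 or MDKO 4. Among the largest differences were sulfotransferases of steroids and bile acids, cytochrome P450s, linker histones and urinary proteins.

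**Figure D2:**
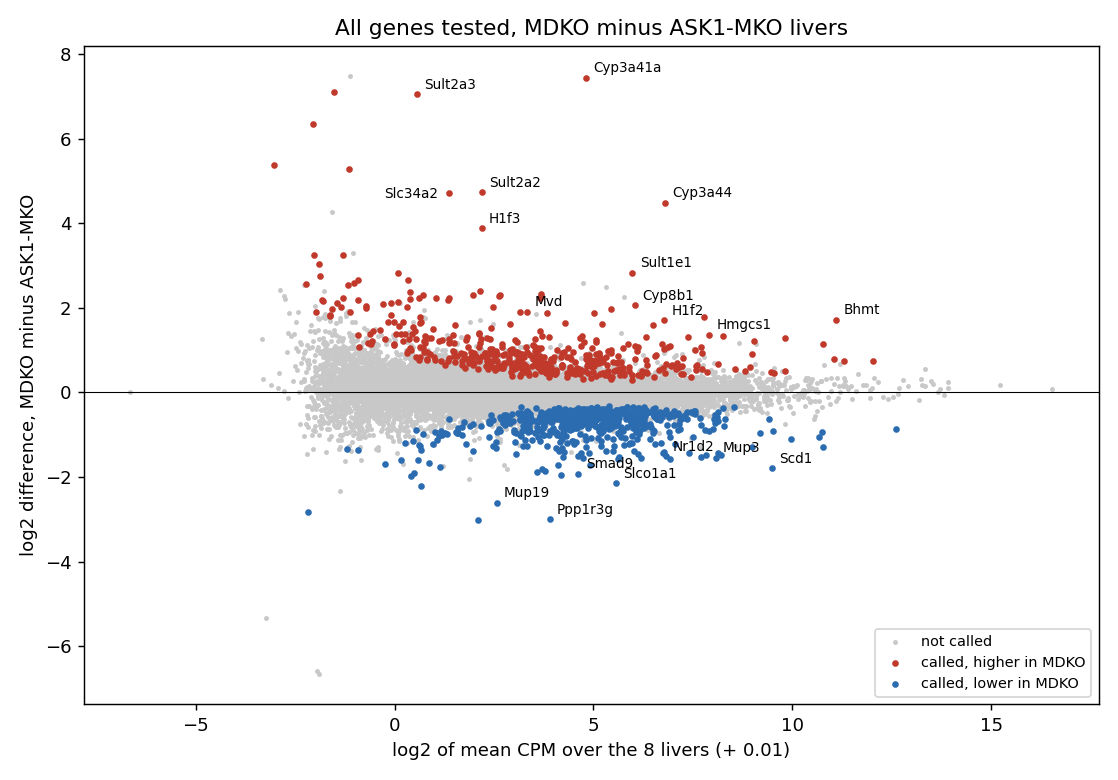
Every gene tested is a point, with its mean level over the 8 livers on the x axis (log2 CPM) and its log2 difference, MDKO minus ASK1-MKO, on the y axis. Called genes, 461 higher and 567 lower, are coloured, and they run from -3.02 for Nr4a1 to 7.45 for Cyp3a41a.

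Several genes that female mouse livers express more than male ones rose in these male livers. Of 20 tested female-biased genes, 8 were higher and 1 was lower in the MDKO livers (45% called, against 7.72% of all genes). The median log2 difference was 0.74 against 0.03 over all genes. Of the 8, Cyp3a41a, Sult2a1, Sult2a2 and Sult2a3 had few reads in the ASK1-MKO livers. They passed the filter on low counts through other groups and could hardly have fallen. Cyp3a44 (chr5:145773983-145805874), a P450 of steroid and drug oxidation, stood at 7.83, 2.33, 9.24 and 18.5 CPM in the ASK1-MKO livers and at 207, 287, 214 and 142 CPM in the MDKO livers. The lowest MDKO liver held several times the CPM of the highest ASK1-MKO liver, a 22.5-fold difference (log2 4.49 ± 0.44, edgeR adjusted p = 4.17e-05). The Lyz2-Cre livers ran from 153 to 282 CPM and the NFATc3-MKO livers from 187 to 252 CPM, so the ASK1-MKO livers were the low group.

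Cyp3a41a (chr5:145694049-145720136), a close relative, stood at 0.529, 0.10, 0.374 and 0.277 CPM in the ASK1-MKO livers and at 17.7, 168, 22.7 and 14.4 CPM in the MDKO livers. MDKO 2 was far above the rest of its group, and the log2 difference of 7.45 ± 1.11 (edgeR adjusted p = 0.000947) became 5.81 without it. Of its transcript, 90.8% of the 100-base windows also occur in another gene, most often Cyp3a41b, so its counts are uncertain, while Cyp3a44 shared 5.37%. Cyp3a11 (chr5:145854426-145879964), an abundant P450 that drugs and bile acids induce, rose from 3098 ± 380.5 to 5197 ± 539 CPM (mean ± SD, n = 4 here and in every such pair; log2 0.75 ± 0.16, edgeR adjusted p = 0.00758). Of 7 Cyp3a genes tested, these 3 rose and none fell (42.9% called, against 7.72% of all genes). Cyp3a41a, with few reads in the ASK1-MKO livers, passed the filter on low counts through other groups and could hardly have fallen.

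The Sult2a enzymes, which attach sulfate to hydroxysteroids and bile acids, were split between 1 abundant member and several with few or no reads in the ASK1-MKO livers. Of 6 tested, 4 rose and none fell (66.7% called, against 7.72% of all genes), with a median log2 difference of 3.66. These 4 were among the low members. Such members passed the filter on low counts through other groups and could hardly have fallen. The count and the median therefore say little about direction. The summed level of the family was 94.38 to 159.6 CPM in the ASK1-MKO livers and 86.26 to 134.7 CPM in the MDKO livers, and the groups overlapped. Most of that sum came from Sult2a8, which stood at 158, 109, 93.8 and 158 CPM in the ASK1-MKO livers and at 109, 103, 77.4 and 124 CPM in the MDKO livers and did not pass (log2 -0.32 ± 0.19, edgeR adjusted p = 0.321), nor did Sult2a7 (edgeR adjusted p = 0.61). Sult2a3 (chr7:14067446-14123044) was represented by 0, 1, 1 and 0 reads in the ASK1-MKO livers and by 65, 97, 13 and 79 reads in the MDKO livers. That is 2 against 254 reads, a ratio of 179 with an exact 95% interval of 49.1 to 1490 for counting error alone (edgeR adjusted p = 4.17e-05). Sult2a2 stood at 0.529, 0.200, 0.306 and 0.316 CPM in the ASK1-MKO livers and at 7.59, 16.6, 5.87 and 5.41 CPM in the MDKO livers, without overlap (log2 4.73 ± 0.64, edgeR adjusted p = 0.000378). Sult2a5 had 0 reads in all 4 ASK1-MKO livers and 56 in the MDKO livers. Setting 3 reads for the ASK1-MKO group gives a 26.4-fold difference, and the exact 95% lower limit for counting error alone is 20.7-fold. Sult2a1 rose from 0.137 ± 0.0438 to 0.823 ± 0.306 CPM (log2 2.60 ± 0.58, edgeR adjusted p = 0.0119). With the MDKO and Lyz2-Cre pairs treated as correlated in limma's voom, an alternative chosen after seeing the data, Sult2a1 lost its call (log2 2.46, limma adjusted p = 0.0797) and 3 members were called. Sult2a2 shares 34.6% of its windows, mostly with Sult2a5, whereas Sult2a3 shares none. NFATc3-MKO livers were higher still in Sult2a3, at 27.0 to 41.0 CPM, against 0.608 to 3.46 CPM in Lyz2-Cre livers.

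Cyp2b13, another P450 of the female pattern, stood at 6.39, 3.17, 3.64 and 4.11 CPM in the ASK1-MKO livers and at 34.1, 11.2, 14.1 and 26.4 CPM in the MDKO livers (log2 2.32 ± 0.50, edgeR adjusted p = 0.00937). Cyp2c40 rose by 0.79 on the log2 scale and lost its call without any single library other than ASK1-MKO 4, MDKO 2 or MDKO 3. The list does not move as a block. Cyp2b9 (215 ± 31.6 and 199 ± 34.2 CPM, edgeR adjusted p = 0.801) and Cyp2a4 (1401 ± 322 and 2183 ± 434 CPM, edgeR adjusted p = 0.131) did not pass. Cyp17a1, the steroid 17-alpha-hydroxylase, fell by 1.11 in log2 units (edgeR adjusted p = 0.0349), and that call was lost without any single library other than ASK1-MKO 2 or ASK1-MKO 3. Outside the list, Sult1e1, the estrogen sulfotransferase, stood at 37.1, 5.13, 6.32 and 13.8 CPM in the ASK1-MKO livers and at 57.6, 196, 72.1 and 117 CPM in the MDKO livers. The groups did not overlap, and ASK1-MKO 1 was the highest of its group: the log2 difference of 2.84 ± 0.57 (edgeR adjusted p = 0.00594) was 3.73 without it.

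Male-biased genes that passed the test moved the other way. Of 22 tested, none rose and 4 fell (18.2% called, against 7.72% of all genes), with a median log2 difference of -0.21. The 4 became 2 without MDKO 3 and 6 without MDKO 2. Mup3 (chr4:62083476-62087342), a major urinary protein that carries pheromones, stood at 471, 282, 386 and 473 CPM in the ASK1-MKO livers and at 129.5, 179, 87.1 and 156 CPM in the MDKO livers. No liver overlapped (log2 -1.54 ± 0.20, edgeR adjusted p = 0.000298), and the Lyz2-Cre range was 107 to 154 CPM. Slco1a1 (chr6:141907282-141946962), a sinusoidal carrier of organic anions and bile acids, stood at 53.3, 75.4, 92.5 and 86.5 CPM in the ASK1-MKO livers and at 10.5, 11.46, 21.5 and 26.1 CPM in the MDKO livers. It was 4.45-fold lower (log2 -2.15 ± 0.47, edgeR adjusted p = 0.0109) and was lower still in NFATc3-MKO livers, at 0.870 to 5.70 CPM. Hsd3b5, a steroid reductase of male mouse liver, fell by 1.98 in log2 units (edgeR adjusted p = 0.017), a call lost without ASK1-MKO 1 or MDKO 3. Mup20, the urinary protein darcin, fell by 1.06 (edgeR adjusted p = 0.0285), a call lost without any single library other than ASK1-MKO 1 or MDKO 2. Mup19, which is outside the list, fell from 10.2 ± 5.38 to 1.62 ± 0.499 CPM (log2 -2.61 ± 0.36, edgeR adjusted p = 0.000453). However, all its windows also occur in another gene, most often Mup9. The other 18 did not pass, and their log2 differences ran from -1.10 for Selenbp2 to 1.30 for Mup12.

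Growth hormone sets the sexual pattern of mouse liver through STAT5b, and Bcl6 is a repressor in the same pathway. Bcl6 stood at 2.80, 4.50, 3.77 and 3.75 CPM in the ASK1-MKO livers and at 10.4, 7.16, 10.5 and 17.4 CPM in the MDKO livers, and rose by 3.07 times (log2 1.62 ± 0.31, edgeR adjusted p = 0.00399). Socs2, a STAT5 target that damps growth hormone signalling, stood at 32.8, 43.1, 15.8 and 38.3 CPM in the ASK1-MKO livers and at 22.0, 12.2, 12.8 and 10.6 CPM in the MDKO livers. The groups overlapped, and its fall of 1.17 in log2 units (edgeR adjusted p = 0.0179) was lost without ASK1-MKO 2, MDKO 3 or MDKO 4. These were the only calls among 12 genes of the axis (16.7%, against 7.72% of all genes). Igf1 was at 439.8 ± 121 and 461 ± 51.6 CPM (edgeR adjusted p = 0.871) and Ghr, the receptor, at 278 ± 26.3 and 246 ± 14.3 CPM (edgeR adjusted p = 0.486).

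**Figure D3:**
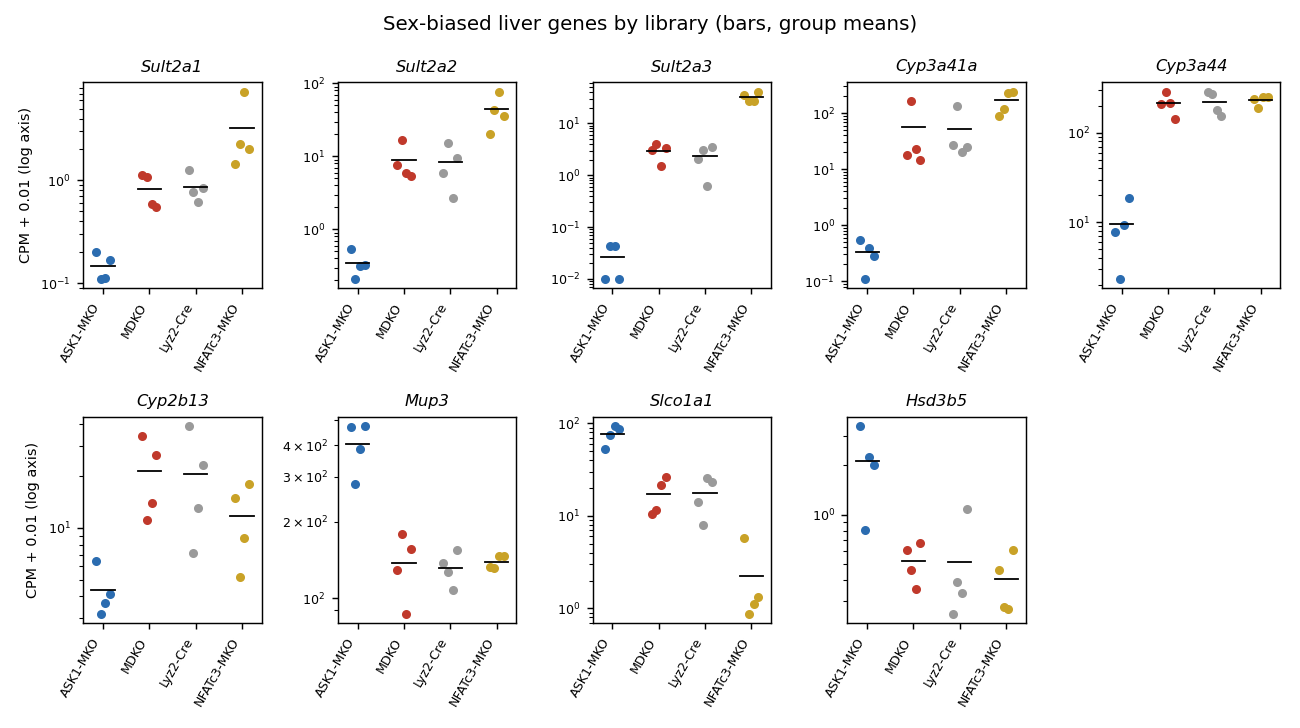
Points are single livers, bars are group means, and the y axis is CPM plus 0.01 on a log axis, for 6 female-biased and 3 male-biased genes. In the Sult2a, Cyp3a and Cyp2b13 panels the 4 ASK1-MKO livers lie below all 4 MDKO livers, and in the Mup3, Slco1a1 and Hsd3b5 panels they lie above.

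Most enzymes of cholesterol synthesis rose. The enzymes build cholesterol from acetyl-CoA by way of mevalonate, squalene and lanosterol, and SREBP2 switches their genes on when sterol in the endoplasmic reticulum is low. Of 20 enzymes tested, 14 rose and none fell, 19 had a positive difference, and the median was 0.96 against 0.03 over all genes. The livers of the 2 groups did not overlap in 15, against 18.1% of all genes. Called were 70% of these enzymes, against 7.72% of all genes. The number called was 6 without ASK1-MKO 1 and 9 without MDKO 3, and between 10 and 15 without any other library. The summed level of the 20 enzymes was 1799 to 2551 CPM in the ASK1-MKO livers, 2983 to 3665 CPM in the MDKO livers and 2703 to 3770 CPM in the Lyz2-Cre livers.

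Hmgcs1 (chr13:119690379-119708260), the synthase that makes HMG-CoA, stood at 115, 197, 132 and 95.3 CPM in the ASK1-MKO livers and at 418, 254, 296 and 421 CPM in the MDKO livers. Every MDKO liver lay above every ASK1-MKO liver (log2 1.36 ± 0.24, edgeR adjusted p = 0.00254). Its promoter is shown because it was the one in this group that held the sterol response element searched for. The stretch runs from 250 bases before to 50 bases after the RefSeq start site, at chr13:119690101-119690400 on the + strand of GRCm38.p6 (mm10). Capitals mark the element TCACCCCAC, which begins 137 bases before the start site:
Hmgcs1: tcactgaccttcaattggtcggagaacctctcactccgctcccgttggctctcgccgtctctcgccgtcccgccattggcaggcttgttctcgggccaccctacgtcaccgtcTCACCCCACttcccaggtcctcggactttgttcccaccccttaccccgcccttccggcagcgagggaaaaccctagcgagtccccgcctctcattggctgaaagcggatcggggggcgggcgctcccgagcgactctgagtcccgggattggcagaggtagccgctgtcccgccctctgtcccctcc
On either strand, this element was found in 1 of 15 cholesterol synthesis promoters in the table (6.67%) and in 0.614% of 27025 promoters of the same length. A match is a description of letters, and SREBP2 also binds other spellings.

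Mvd, the decarboxylase that yields isopentenyl pyrophosphate, stood at 3.02, 5.13, 4.28 and 4.50 CPM in the ASK1-MKO livers and at 23.0, 10.1, 14.7 and 15.7 CPM in the MDKO livers. It had the largest difference of the group, 3.75-fold (log2 1.91 ± 0.27, edgeR adjusted p = 0.000507). Mvk, mevalonate kinase, stood at 5.22, 11.0, 8.39 and 7.07 CPM in the ASK1-MKO livers and at 20.4, 13.2, 15.3 and 17.2 CPM in the MDKO livers (log2 1.06 ± 0.20, edgeR adjusted p = 0.00339). Dhcr7, which performs the last reduction to cholesterol, stood at 22.9, 35.5, 35.7 and 22.7 CPM in the ASK1-MKO livers and at 61.5, 52.1, 61.5 and 58.5 CPM in the MDKO livers (log2 1.00 ± 0.17, edgeR adjusted p = 0.00216). None of these 4 genes overlapped between the groups, and each kept its call without any single library. Sqle, squalene epoxidase, rose from 34.8 ± 20.6 to 72.6 ± 6.43 CPM (log2 1.06 ± 0.30, edgeR adjusted p = 0.0402), a call lost without any single library other than ASK1-MKO 2 or ASK1-MKO 3. Among those without a call were Acat2, Idi1, Hsd17b7, Ebp and Sc5d, with log2 differences from -0.04 for Sc5d to 0.92 for Idi1.

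Other sterol-responsive genes moved less evenly. Of 12 tested, 1 rose and 1 fell (16.7% called, against 7.72% of all genes), with a median of 0.09. Srebf2, which encodes SREBP2 itself, stood at 35.2 ± 4.03 and 45.8 ± 4.56 CPM and did not pass (edgeR adjusted p = 0.0613). Abcg8, part of the pump that moves sterols into bile, fell from 107 ± 23.7 to 63.8 ± 11.2 CPM (log2 -0.75 ± 0.22, edgeR adjusted p = 0.0472), but the call was lost without any single library other than ASK1-MKO 3.

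The first and the branching step of bile acid synthesis rose with the cholesterol enzymes. Cyp7a1 (chr4:6265612-6275633), the rate-limiting 7-alpha-hydroxylase, stood at 85.5, 153, 47.9 and 111 CPM in the ASK1-MKO livers and at 302, 273, 342 and 444 CPM in the MDKO livers. The groups did not overlap (3.43-fold, log2 1.78 ± 0.33, edgeR adjusted p = 0.0039). Cyp8b1 (chr9:121914356-121916305), which directs the pathway to cholic acid, stood at 24.5, 24.4, 18.9 and 34.8 CPM in the ASK1-MKO livers and at 103, 84.0, 149 and 91.8 CPM in the MDKO livers (4.17-fold, log2 2.06 ± 0.39, edgeR adjusted p = 0.0043). With Slco1a1, which fell, these were the 3 calls among 18 genes of bile acid synthesis and transport (16.7%, against 7.72% of all genes). The list as a whole did not rise: 4 of the 18 had positive log2 differences and the median was -0.13. Nr1h4, which encodes the bile acid receptor FXR, was at 98.5 ± 11.6 and 94.4 ± 8.83 CPM (edgeR adjusted p = 0.835). Its target Nr0b2 was at 8.27 ± 3.91 and 5.5 ± 1.92 CPM (edgeR adjusted p = 0.36).

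**Figure D4:**
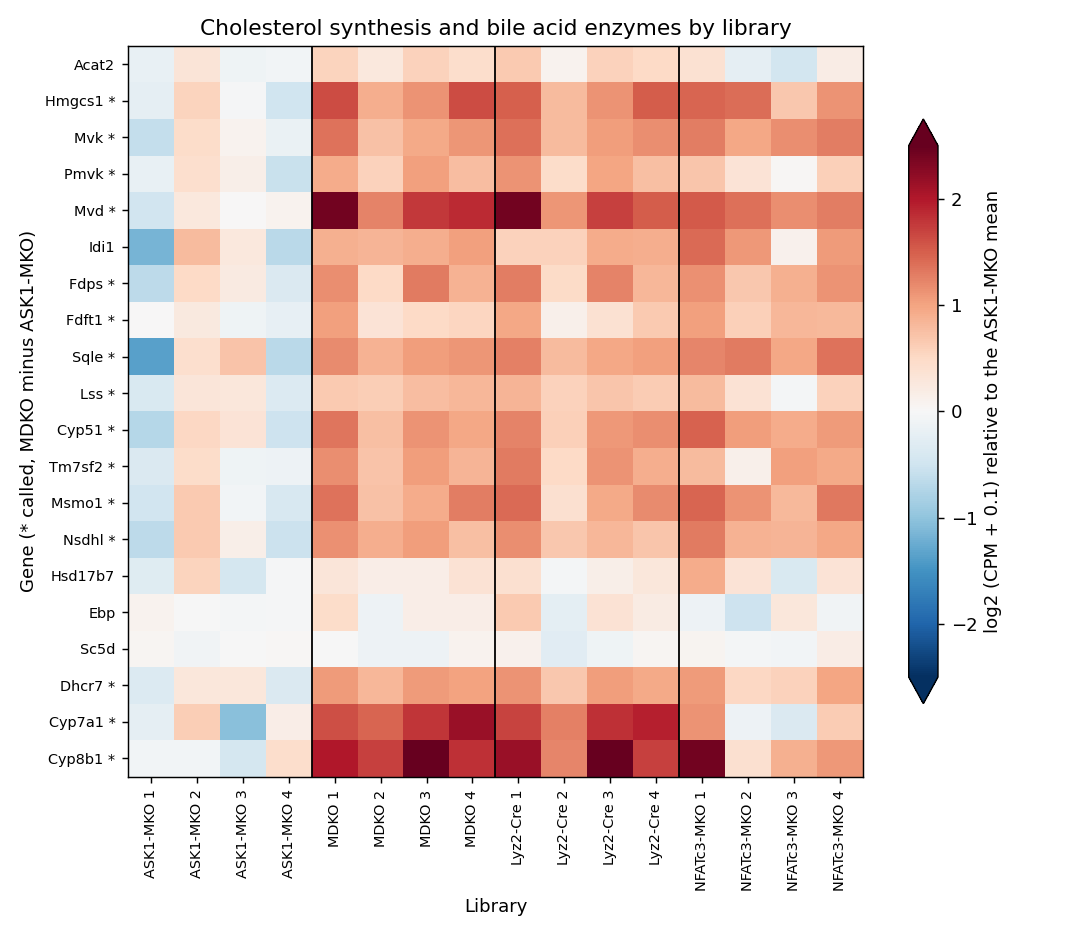
Each row is a gene and each column a liver, coloured by log2 CPM (plus 0.1) relative to the mean of the 4 ASK1-MKO livers, with asterisks on genes called between MDKO and ASK1-MKO. The MDKO block is red for the called enzymes of cholesterol synthesis shown, for Cyp7a1 and for Cyp8b1, the Lyz2-Cre block looks alike, and MDKO 2 is the palest MDKO liver for Mvd.

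Of 18 lipogenic genes, none rose and 3 fell (16.7% called, against 7.72% of all genes). Even so, 13 had positive log2 differences and the median was 0.16. At an unadjusted p under 0.05, 5 were higher and 3 lower. The 3 fell with any single library left out, whereas 1 gene rose without ASK1-MKO 3 and 3 rose under the replicate block. Scd1 (chr19:44394455-44407879), the desaturase that makes oleate, stood at 1371, 565, 1397 and 1135 CPM in the ASK1-MKO livers and at 173, 361, 418 and 339 CPM in the MDKO livers. The lowest ASK1-MKO liver still exceeded the highest MDKO liver (log2 -1.79 ± 0.36, edgeR adjusted p = 0.00552), and the NFATc3-MKO livers were lower again, at 48.9 to 166 CPM. Lpin1, the phosphatidate phosphatase and coactivator lipin 1, stood at 187, 350.0, 257 and 449.8 CPM in the ASK1-MKO livers and at 92.4, 118, 137 and 87.0 CPM in the MDKO livers (log2 -1.52 ± 0.34, edgeR adjusted p = 0.0124). Mlxipl, which encodes the glucose-sensing factor ChREBP, stood at 36.3, 24.5, 43.9 and 30.2 CPM in the ASK1-MKO livers and at 16.1, 19.2, 16.5 and 16.6 CPM in the MDKO livers (log2 -0.98 ± 0.15, edgeR adjusted p = 0.000937). Fasn, fatty acid synthase, was at 338 ± 269.6 and 747 ± 242 CPM with a wide spread and did not pass (log2 1.15 ± 0.48, edgeR adjusted p = 0.159). Srebf1 was at 80.7 ± 19.8 and 90.02 ± 23.2 CPM (edgeR adjusted p = 0.69).

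Among 21 genes of fatty acid oxidation and PPAR alpha, Angptl4 was the only call (4.76%, against 7.72% of all genes). Angptl4, an inhibitor of lipoprotein lipase, stood at 128, 146, 118 and 132 CPM in the ASK1-MKO livers and at 56.3, 61.3, 52.3 and 56.3 CPM in the MDKO livers. The groups lay well apart (2.31-fold lower in MDKO, log2 -1.21 ± 0.16, edgeR adjusted p = 0.000298). Cpt1a, which admits fatty acids to mitochondria, was at 692 ± 153 and 605 ± 21.4 CPM (edgeR adjusted p = 0.552).

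In glucose metabolism, Pfkp, the platelet-type phosphofructokinase, rose from 4.05 ± 0.823 to 9.01 ± 1.71 CPM (log2 1.15 ± 0.22, edgeR adjusted p = 0.00495). Pfkp was the only call among 18 glycolytic genes (5.56%, against 7.72% of all genes). Of 15 genes of gluconeogenesis and glycogen, 1 rose and 2 fell (20% called, against 7.72% of all genes). Pck1, the gatekeeper of gluconeogenesis, stood at 2458, 3310, 2199 and 2007 CPM in the ASK1-MKO livers and at 453, 1390, 919 and 1322 CPM in the MDKO livers. The groups did not overlap (log2 -1.29 ± 0.34, edgeR adjusted p = 0.0282), but the call was lost without ASK1-MKO 1, ASK1-MKO 2, MDKO 1 or MDKO 3. Ppp1r3g, which targets protein phosphatase 1 to glycogen, stood at 13.4, 51.4, 18.2 and 23.5 CPM in the ASK1-MKO livers and at 2.04, 3.03, 2.53 and 5.41 CPM in the MDKO livers. The groups did not overlap (log2 -3.003 ± 0.670, edgeR adjusted p = 0.0116), with ASK1-MKO 2 the highest liver, and the call was lost without MDKO 1 (edgeR adjusted p = 0.055). Its relative Ppp1r3b rose by 1.08 in log2 units (edgeR adjusted p = 0.0495) but lost the call without any single library other than ASK1-MKO 4.

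Because the diet lacks methionine and choline, the enzymes of that pathway were examined. Bhmt (chr13:93616675-93637961), which uses betaine from choline to remake methionine from homocysteine, stood at 1008, 1151, 590.3 and 1351 CPM in the ASK1-MKO livers and at 2528, 3146, 3746 and 4073 CPM in the MDKO livers. It rose by 3.29 times without overlap (log2 1.72 ± 0.24, edgeR adjusted p = 0.000415), and the Lyz2-Cre and NFATc3-MKO livers, at 2916 to 4539 and 2426 to 3572 CPM, were also above the ASK1-MKO livers. Cbs, which commits homocysteine to cysteine, fell from 169 ± 22.3 to 116 ± 16.6 CPM (log2 -0.55 ± 0.15, edgeR adjusted p = 0.0366), a call lost without any single library other than ASK1-MKO 2, ASK1-MKO 3 or MDKO 1. These were the calls among 22 genes. That share, 9.09%, is near the 7.72% of all genes and does not set the list apart. Bhmt2, its neighbour in function, was at 166 ± 34.5 and 263 ± 30.2 CPM and just missed the threshold (edgeR adjusted p = 0.0505).

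Clock genes moved in both directions. The clock is a loop in which BMAL1 and CLOCK drive Per, Cry and Nr1d genes, whose products repress the loop in turn. Of 15 core clock genes, 3 rose and 5 fell (53.3% called, against 7.72% of all genes). With any single library left out, 3 or 4 rose and 4 or 5 fell. Nr1d2 (chr14:18204054-18239127), which encodes REV-ERB beta, stood at 184, 168, 174 and 145 CPM in the ASK1-MKO livers and at 64.9, 70.8, 45.0 and 54.5 CPM in the MDKO livers (log2 -1.51 ± 0.17, edgeR adjusted p = 0.000137). Nr1d1, which encodes REV-ERB alpha, stood at 46.8, 16.8, 23.2 and 19.4 CPM in the ASK1-MKO livers and at 9.39, 9.58, 5.64 and 7.33 CPM in the MDKO livers (log2 -1.71 ± 0.29, edgeR adjusted p = 0.00216). The ASK1-MKO livers were above all MDKO livers for both repressors.

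Per1 (chr11:69095217-69109960), the quickest of the period genes to respond to light and hormones, stood at 31.1, 48.0, 43.6 and 42.6 CPM in the ASK1-MKO livers and at 18.1, 18.3, 18.5 and 23.1 CPM in the MDKO livers (log2 -1.08 ± 0.14, edgeR adjusted p = 0.000279). Its promoter is shown as the example of the E-box through which BMAL1 and CLOCK act. It lies at chr11:69098699-69098998 on the + strand of GRCm38.p6, with the E-box CACGTG in capitals, beginning 166 bases before the RefSeq start site:
Per1: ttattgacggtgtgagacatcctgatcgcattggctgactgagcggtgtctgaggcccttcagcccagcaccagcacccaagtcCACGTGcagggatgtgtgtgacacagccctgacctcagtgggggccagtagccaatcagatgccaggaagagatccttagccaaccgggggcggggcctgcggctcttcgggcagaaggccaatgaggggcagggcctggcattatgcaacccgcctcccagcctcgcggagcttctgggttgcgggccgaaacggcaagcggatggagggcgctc
This hexamer, the same on both strands, was found in 4 of 12 core clock promoters in the table (33.3%: Per1, Cry1, Ciart and Bhlhe41) and in 8.09% of all 27025. The genes that hold it did not move together: Per1 and Ciart fell, Cry1 rose and Bhlhe41 did not pass (edgeR adjusted p = 0.394).

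Per3 fell by 1.01 in log2 units (edgeR adjusted p = 0.009), and Ciart, a repressor of BMAL1, fell by 0.79 (edgeR adjusted p = 0.0259), the latter call lost without any single library other than ASK1-MKO 2, ASK1-MKO 3 or MDKO 4. In the other direction, Cry1, a late repressor, stood at 9.00, 12.9, 11.0 and 11.9 CPM in the ASK1-MKO livers and at 19.2, 18.5, 28.8 and 23.6 CPM in the MDKO livers (log2 1.00 ± 0.17, edgeR adjusted p = 0.00226). Per2 rose from 26.1 ± 3.54 to 43.6 ± 6.18 CPM (log2 0.74 ± 0.14, edgeR adjusted p = 0.00357). Bmal1 itself was low, at 0.945, 0.800, 0.884 and 0.316 CPM in the ASK1-MKO livers and 1.39, 1.31, 5.18 and 2.75 CPM in the MDKO livers, and just missed the threshold (edgeR adjusted p = 0.0553). Of 12 clock output genes, 2 fell (16.7% called, against 7.72% of all genes). Dbp, a factor whose RNA swings widely over the day, stood at 93.7, 64.8, 64.7 and 73.2 CPM in the ASK1-MKO livers and at 38.0, 26.4, 11.8 and 25.7 CPM in the MDKO livers (log2 -1.53 ± 0.31, edgeR adjusted p = 0.00637). Tef, its relative, fell by 0.64 in log2 units (edgeR adjusted p = 0.0291), a call lost without any single library other than ASK1-MKO 3 or MDKO 1. The part that the hour of collection had in these differences was not tested.

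Several linker and core histone genes rose. The libraries were of purified mRNA, and how fully that step keeps histone messages was not tested. The list held 38 histone symbols, some of them older names of genes also listed under newer ones. Of these symbols, 26 were in the table and 13 passed the filter on low counts. Of these 13 genes, 7 rose and 1 fell (61.5% called, against 7.72% of all genes), with a median log2 difference of 1.60. With any single library left out, 6 to 8 rose. H1f3 and H1f4, low in the ASK1-MKO livers, passed the filter through other groups and could hardly have fallen. H1f2 (chr13:23738807-23739531), a linker histone that compacts nucleosome arrays, stood at 46.7, 24.6, 69.4 and 65.8 CPM in the ASK1-MKO livers and at 173, 189, 134 and 179.5 CPM in the MDKO livers (log2 1.71 ± 0.26, edgeR adjusted p = 0.000947). H1f3, another linker histone, stood at 0.340, 0.133, 0.476 and 1.42 CPM in the ASK1-MKO livers and at 6.66, 9.45, 4.61 and 13.4 CPM in the MDKO livers. Its 14.8-fold rise (log2 3.89 ± 0.50, edgeR adjusted p = 0.000298) was larger, at 4.76 on the log2 scale, without ASK1-MKO 4. H1f4, with 28 reads over the ASK1-MKO livers and 143 over the MDKO livers, rose by 2.82 in log2 units (edgeR adjusted p = 0.00124). Of its windows, 24.7% also occur in another gene, most often the histone gene Hist1h2be. H4c8, a core histone, stood at 1.81, 1.23, 1.09 and 1.62 CPM in the ASK1-MKO livers and at 3.56, 5.57, 3.57 and 4.58 CPM in the MDKO livers (log2 1.60 ± 0.21, edgeR adjusted p = 0.000333). H2ac6, H2ac18 and H4c9 were the other members that rose, the last losing its call without any single library other than ASK1-MKO 4 or MDKO 1. H3c15, a core histone outside the list, rose by 2.66 (edgeR adjusted p = 0.000137). The member that fell was H1f0, the linker histone of resting cells, at 136 ± 7.60 and 96.2 ± 17.6 CPM (edgeR adjusted p = 0.0469), a call lost without any single library other than MDKO 1.

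Most histone messages are made in S phase, and the cell cycle list was therefore set beside them. Of 23 cell cycle genes, 1 rose and 1 fell (8.7% called, near the 7.72% of all genes). The median was -0.33 and 4 had positive log2 differences. At an unadjusted p under 0.05 in edgeR, 1 was higher and 6 lower. Their summed level was nevertheless 521.1 to 698.9 CPM in the ASK1-MKO livers and 681.5 to 767.2 CPM in the MDKO livers. Ccnd1, cyclin D1, rose by 0.52 in log2 units (edgeR adjusted p = 0.0357), a call lost without any single library other than ASK1-MKO 4 or MDKO 2. Ccne1, cyclin E1, fell by 0.78 (edgeR adjusted p = 0.0235), a call lost without any single library other than ASK1-MKO 2.

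**Figure D5:**
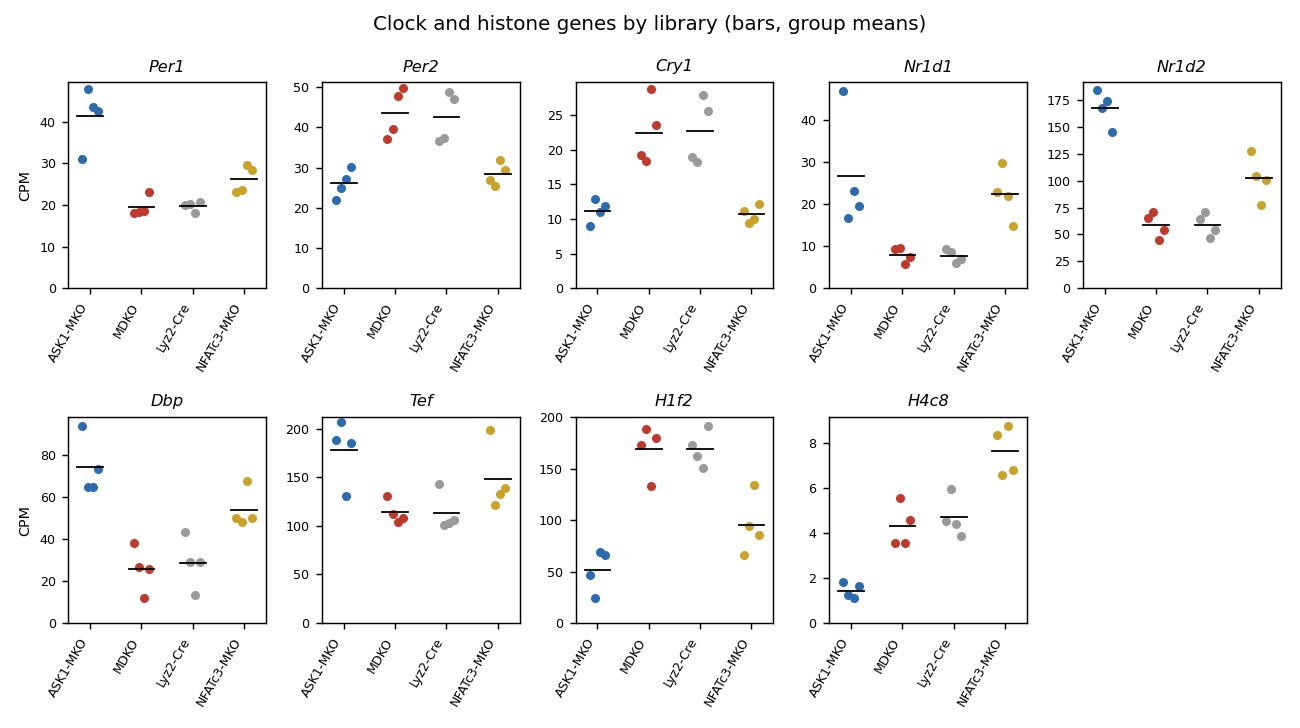
Points are single livers and bars are group means, in CPM, for 7 clock genes and 2 histone genes. Per1, Nr1d1, Nr1d2 and Dbp are higher in all 4 ASK1-MKO livers than in any MDKO liver, while Per2, Cry1, H1f2 and H4c8 are lower.

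Antioxidant genes showed a smaller shift. NRF2, encoded by Nfe2l2, turns on glutathione and detoxification enzymes when oxidants disable its partner KEAP1. Of 24 genes tested, 7 rose and none fell (29.2% called, against 7.72% of all genes), with a median of 0.33. That number fell to 5 at most without any single library and to 2 without MDKO 3. Abcc4, which exports conjugates into blood, stood at 14.7, 10.6, 21.4 and 13.0 CPM in the ASK1-MKO livers and at 32.5, 42.5, 36.6 and 33.0 CPM in the MDKO livers (log2 1.28 ± 0.22, edgeR adjusted p = 0.00231). Gsta2, a glutathione transferase, stood at 40.7, 53.2, 42.2 and 30.97 CPM in the ASK1-MKO livers and at 99.8, 76.9, 90.9 and 91.1 CPM in the MDKO livers (log2 1.10 ± 0.20, edgeR adjusted p = 0.00299), with 35% of its windows shared with another gene. Both kept their calls without any single library. Hmox1, which breaks down heme, rose by 1.10 in log2 units (edgeR adjusted p = 0.0201), a call lost without ASK1-MKO 2, ASK1-MKO 4, MDKO 2 or MDKO 3. Nfe2l2 itself rose by 0.46 (edgeR adjusted p = 0.0228), a call lost without ASK1-MKO 1, ASK1-MKO 3, MDKO 3 or MDKO 4. Nqo1, Gclc and Gclm, its best-known targets, did not pass (edgeR adjusted p = 0.115, 0.936 and 0.925).

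Of 13 Cyp2c genes, 2 rose and 3 fell (38.5% called, against 7.72% of all genes). Cyp2c70, which makes the muricholic acids of mouse bile, stood at 361, 254, 359 and 290.1 CPM in the ASK1-MKO livers and at 171, 172, 148 and 176 CPM in the MDKO livers (log2 -0.92 ± 0.16, edgeR adjusted p = 0.00233). Cyp2c54, a fatty acid epoxygenase, fell from 19.0 ± 4.63 to 5.09 ± 1.41 CPM (log2 -1.89 ± 0.25, edgeR adjusted p = 0.000378). Cyp2c67 fell from 186 ± 17.2 to 80.5 ± 24.5 CPM (log2 -1.21 ± 0.27, edgeR adjusted p = 0.011), with 23.7% of its windows shared. Cyp2c55 rose from 5.20 ± 1.55 to 10.4 ± 2.42 CPM (log2 0.99 ± 0.22, edgeR adjusted p = 0.0106), and Cyp2c40 is given above with the female-biased genes.

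Chaperones of the endoplasmic reticulum and of the cytosol differed in direction. Of 18 genes of the unfolded protein and integrated stress response, 4 fell and none rose, with a median of -0.61. Called were 22.2%, against 7.72% of all genes. The 4 were 1 without ASK1-MKO 3, MDKO 1 or MDKO 3, 2 without ASK1-MKO 1, ASK1-MKO 4 or MDKO 4, and 6 without ASK1-MKO 2. Hsp90b1, the chaperone GRP94, stood at 840.3, 748, 1013 and 730.1 CPM in the ASK1-MKO livers and at 520.0, 535, 642 and 476 CPM in the MDKO livers (log2 -0.62 ± 0.13, edgeR adjusted p = 0.00632) and kept its call throughout. Herpud1, which serves degradation from the reticulum, fell by 0.87 in log2 units (edgeR adjusted p = 0.0308; lost without ASK1-MKO 1, ASK1-MKO 3, MDKO 1 or MDKO 3). Pdia4 and Dnajb9 fell by 0.61 and 0.93 with adjusted p of 0.0403 and 0.044 in edgeR, and the calls were lost without any single library other than ASK1-MKO 2 or MDKO 2 and without any single library other than ASK1-MKO 1, ASK1-MKO 2 or MDKO 2 respectively. Of 15 heat shock and cold-inducible genes, 3 rose and none fell (20% called, against 7.72% of all genes). However, none rose without ASK1-MKO 1, ASK1-MKO 2 or MDKO 3. Hspa8, the constitutive HSC70, stood at 1411, 1411, 1597 and 1821 CPM in the ASK1-MKO livers and at 2909, 2048, 3519 and 2300 CPM in the MDKO livers (log2 0.79 ± 0.19, edgeR adjusted p = 0.0182; lost without ASK1-MKO 1, ASK1-MKO 2 or MDKO 3). Its partner Dnaja1 rose by 0.55 (edgeR adjusted p = 0.0192; lost without ASK1-MKO 1, ASK1-MKO 2, MDKO 3 or MDKO 4). Hspa1a, the stress-inducible HSP70, rose by 2.41 (edgeR adjusted p = 0.0228) with overlapping groups; it was lost without any single library other than ASK1-MKO 4, MDKO 2 or MDKO 4 and stood at 3.10 without ASK1-MKO 4.

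In the 2 targeted pathways, 14.3% of NFAT and calcineurin genes and 11.1% of ASK1 and stress MAP kinase genes were called. Over all genes the share was 7.72%. Rcan1, a calcineurin inhibitor whose transcription NFAT itself can drive, stood at 20.1, 26.0, 34.2 and 39.3 CPM in the ASK1-MKO livers and at 50.6, 51.5, 72.7 and 54.9 CPM in the MDKO livers. It was higher in every MDKO liver (log2 0.94 ± 0.22, edgeR adjusted p = 0.0153), a call lost without ASK1-MKO 1, ASK1-MKO 2 or MDKO 3, and the NFATc3-MKO livers stood at 16.4 to 23.1 CPM. Ppp3cb, a catalytic subunit of calcineurin, fell by 0.43 in log2 units (edgeR adjusted p = 0.0361), a call lost without any single library other than MDKO 2. These were the calls among 14 genes of NFAT and calcineurin. Among 18 genes of ASK1 and the stress MAP kinases, Map3k5 and Map2k7 fell. Map2k7, the kinase MKK7 that activates JNK, stood at 23.3, 23.1, 26.4 and 23.1 CPM in the ASK1-MKO livers and at 16.0, 17.5, 18.1 and 16.7 CPM in the MDKO livers, and kept its call without any single library (log2 -0.49 ± 0.10, edgeR adjusted p = 0.00504). Genes within 5 Mb of the targets were called in 9 of 102 cases around Nfatc3 and 3 of 35 around Map3k5, against 7.72% of all genes.

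For inflammation and fibrosis, the share called was 0% of cytokine and chemokine genes, 5% of interferon response genes and 3.33% of fibrosis and matrix genes. It was 5.26% of acute phase genes and 11.8% of immediate early genes, against 7.72% of all genes. In lists this short, such shares do not set these genes apart from the rest. None of 16 cytokine and chemokine genes was called by edgeR, with 1 at an unadjusted p under 0.05, 0 called by DESeq2 and 1 by voom with quality weights. Of 20 interferon response genes, Stat2, which relays type I interferon, was the only call, at 24.8, 26.3, 23.3 and 23.8 CPM in the ASK1-MKO livers and 32.6, 33.1, 36.0 and 33.9 CPM in the MDKO livers (log2 0.46 ± 0.10, edgeR adjusted p = 0.008). Of 30 fibrosis and matrix genes, none rose and 1 fell. Orm3 was the only call of 19 acute phase genes, from 27 reads over the ASK1-MKO livers and 83 over the MDKO livers (edgeR adjusted p = 0.0254); its log2 difference of 2.00 was 1.32 without MDKO 2, and the call was lost without any single library other than ASK1-MKO 4, MDKO 1 or MDKO 3. Of 17 immediate early genes, Egr1 rose by 1.30 (edgeR adjusted p = 0.0166; lost without MDKO 1). Nr4a1 fell by 3.02 in log2 units (edgeR adjusted p = 0.0315), largely through ASK1-MKO 2 at 22.7 CPM: without it the difference was -1.43. The Nr4a1 call was lost without any single library other than ASK1-MKO 3 or ASK1-MKO 4.

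No macrophage marker was called by edgeR. The 12 pan-macrophage markers, with a median log2 difference of 0.48, summed to 210.7 to 356 CPM in the ASK1-MKO livers and to 176.6 to 404.9 CPM in the MDKO livers. The 12 Kupffer cell markers, with a median of 0.56, summed to 288.1 to 404.4 CPM in the ASK1-MKO livers and to 307.7 to 659.5 CPM in the MDKO livers. Clec4f, a defining Kupffer lectin, stood at 63.2, 77.5, 71.1 and 49.9 CPM in the ASK1-MKO livers and at 41.0, 122, 89.7 and 125 CPM in the MDKO livers, with overlap (edgeR adjusted p = 0.309). Lyz2, the gene that drives the Cre, stood at 75.0, 82.2, 61.2 and 73.4 CPM in the ASK1-MKO livers and at 54.1, 138, 75.9 and 106 CPM in the MDKO livers, also with overlap (edgeR adjusted p = 0.719). Clec4f in 3 of the 4 MDKO livers, but not in MDKO 1, lay above every ASK1-MKO liver. At an unadjusted p under 0.05, 1 pan-macrophage marker was higher and 1 lower, and 2 Kupffer cell markers were higher. Without MDKO 1, the Kupffer cell markers Vsig4 and Marco were called higher. DESeq2 called 1 Kupffer cell marker higher, and voom with quality weights called 5, with 3 pan-macrophage markers higher and 1 lower. None of 12 markers of recruited or lipid-laden macrophages, 5 of neutrophils, 11 of T and NK cells, 6 of B and plasma cells, 6 of dendritic cells, 8 of cholangiocytes, 10 of stellate cells or 11 of liver endothelium was called by edgeR, with 0 to 1 at an unadjusted p under 0.05 in each list. Voom with quality weights called 1 of the lipid-laden macrophage list lower and 2 of the endothelial list higher, while DESeq2 called 1 endothelial marker. The 3 pancreatic, 2 adipocyte and 4 mesothelial markers gave no edgeR call, and DESeq2 called 1 mesothelial marker. Of 5 erythroid markers, Alas2, an enzyme of heme synthesis in red cells, rose from 15.2 ± 1.93 to 29.6 ± 2.71 CPM (log2 0.96 ± 0.13, edgeR adjusted p = 0.000453). The erythroid sum was 129.6 to 254.6 CPM in the ASK1-MKO livers and 216.4 to 384.9 CPM in the MDKO livers, and its part in other results was not tested.

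Hepatocytes differ in their enzymes along the lobule, and markers of both ends were compared. The share called was 22.2% of pericentral, 33.3% of periportal and 6.67% of general hepatocyte markers, against 7.72% of all genes. Of 9 pericentral markers, 2 rose, and all 9 differences were positive. Lgr5, an R-spondin receptor of cells around the central vein, rose from 3.58 ± 0.690 to 7.34 ± 1.35 CPM (edgeR adjusted p = 0.0205; lost without any single library other than ASK1-MKO 2, MDKO 1 or MDKO 3). Rhbg, an ammonium carrier, rose by 1.00 in log2 units (edgeR adjusted p = 0.0403; lost without any single library other than MDKO 1). Their summed level was 8386 to 12940 CPM in the ASK1-MKO livers and 14760 to 17720 CPM in the MDKO livers, most of it from Cyp2e1, which itself did not pass (edgeR adjusted p = 0.0592). Of 9 periportal markers, Aldh1b1, an aldehyde dehydrogenase, rose by 0.62 (edgeR adjusted p = 0.0115), while Sds and Pck1 fell. Sds, serine dehydratase, stood at 191, 191, 91.1 and 151 CPM in the ASK1-MKO livers and at 59.2, 61.3, 60.4 and 51.2 CPM in the MDKO livers (log2 -1.43 ± 0.33, edgeR adjusted p = 0.0136). Of 15 hepatocyte markers, Prox1, a hepatocyte transcription factor, rose by 0.60 (edgeR adjusted p = 0.0493; lost without any single library other than ASK1-MKO 2).

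The other named genes with large differences belong to no list. Slc34a2 (chr5:53038081-53071664), a sodium-phosphate cotransporter, stood at 0.0378, 0.0333, 0.204 and 0.474 CPM in the ASK1-MKO livers and at 3.98, 3.44, 4.49 and 7.83 CPM in the MDKO livers. With 20 against 397 reads, the ratio was 28 (exact 95% interval 17.9 to 46.4 for counting error), and the log2 difference of 4.73 ± 0.62 (edgeR adjusted p = 0.000311) was 5.66 without ASK1-MKO 4. Pdxp, a pyridoxal phosphatase, and Lingo4, a membrane protein with leucine-rich repeats, rose by 2.37 and 2.31 in log2 units (edgeR adjusted p = 0.0043 and 0.00047). Among the genes that fell, Smad9, a signal carrier of bone morphogenetic proteins, stood at 35.6, 51.0, 31.2 and 38.0 CPM in the ASK1-MKO livers and at 10.6, 13.4, 10.1 and 7.12 CPM in the MDKO livers (log2 -1.92 ± 0.32, edgeR adjusted p = 0.00176). Maff, a small Maf factor, stood at 19.9, 17.7, 29.2 and 14.3 CPM in the ASK1-MKO livers and at 6.34, 6.22, 4.84 and 5.37 CPM in the MDKO livers (log2 -1.82 ± 0.21, edgeR adjusted p = 0.000168). Wsb1, an adaptor of a ubiquitin ligase, and Tcp11l2 fell by 1.96 and 1.85 in log2 units (edgeR adjusted p = 0.00462 and 0.000173). Adcy1, an adenylyl cyclase, and Rfx4, a ciliary factor, fell by 2.21 and 1.92 (edgeR adjusted p = 0.0456 and 0.0235). The Adcy1 call was lost without any single library other than ASK1-MKO 2 or MDKO 2 and the difference was -3.02 without MDKO 2. The Rfx4 call was lost without any single library other than ASK1-MKO 3, ASK1-MKO 4 or MDKO 1.

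Whether the loss of NFATc3 acts differently where ASK1 is present was tested as a difference of differences: MDKO minus ASK1-MKO, less NFATc3-MKO minus Lyz2-Cre. The 2 differences share no library. In the edgeR fit 2153 genes (16.2%) were called, 1088 higher and 1065 lower. Among them were 811 of the 1028 genes above. The contrast contains the MDKO minus ASK1-MKO difference on the same libraries, so that overlap is not a separate result. MDKO and Lyz2-Cre enter this contrast with the same sign, and their same-numbered libraries are alike, so the edgeR error is too small: with those pairs treated as correlated (correlation 0.726, limma's voom, chosen after seeing the data), 949 genes were called, 523 higher and 426 lower. Angptl4 fell between MDKO and ASK1-MKO, as given above, but rose in NFATc3-MKO against Lyz2-Cre by 1.00 ± 0.16 in log2 units (edgeR adjusted p = 0.00321; difference of differences -2.21 ± 0.22, edgeR adjusted p = 5.96e-05). Nr1d1 likewise fell in the first and rose in the second, by 1.53 ± 0.29 (edgeR adjusted p = 0.00704; difference of differences -3.24 ± 0.41, edgeR adjusted p = 0.000153). Rcan1 rose in the first and was -1.58 ± 0.22 in the second (edgeR adjusted p = 0.00235; difference of differences 2.52 ± 0.31, edgeR adjusted p = 0.000139). Cyp3a44, in contrast, rose in the first and was 0.06 ± 0.38 in the second (edgeR adjusted p = 0.932; difference of differences 4.43 ± 0.56, edgeR adjusted p = 0.000153). Scd1 fell in the first and was -1.78 ± 0.36 in the second (edgeR adjusted p = 0.00818), and the difference of differences was -0.02 ± 0.49 (edgeR adjusted p = 0.988). Set beside these, ASK1-MKO minus Lyz2-Cre gave 1126 called genes, 593 higher and 533 lower, in a comparison that shares the ASK1-MKO libraries with the one described here.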

How the data were processed

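RNA was sequenced from 16 livers, 4 in each of 4 groups, from dUTP libraries of purified mRNA, per the labels. The authors deposited expected counts per gene, of which 85.42% were whole; these were rounded to whole numbers. Reads were aligned with HISAT2 to mm10, per the submitters' processing notes. The counting program, its annotation and whether it used strand were each not given in the sources used here, so overlapping and antisense genes are uncertain.

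All 16 livers entered a single fit in edgeR 4.0.16 (R 4.3.3; TMM scaling, filterByExpr, quasi-likelihood test, Benjamini-Hochberg adjustment), which kept 13309 of 17752 genes; a gene was called at an adjusted p under 0.05. CPM are counts scaled to the TMM-adjusted library total. Means are given ± SD and log2 differences ± SE. Depths were 8912117 to 29126663 counts in the livers compared, and intervals for low genes cover counting error only. Nothing says that the samples are separate litters or cultures, so p-values measure the spread between these samples. Replicate numbers are not given as pairs: deviations of same-numbered MDKO and ASK1-MKO libraries correlated at -0.028, -0.037, 0.158 and -0.171. DESeq2 1.42.0 and limma 3.58.1 gave alternatives. Two-sided exact permutation tests over livers served Nfatc3 and Map3k5. Steps were tested on simulated data.

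The gene lists, the comparison and the tests were chosen with earlier results of these data known. Genes named are the targets, the 12 largest rises and 12 largest falls among called genes (livers not overlapping, higher group averaging 1 CPM or more), up to 4 called members of each pathway list and up to 3 of each marker list (with none called, 2 abundant ones). Other list members in the text, mostly ones that did not pass, were picked after their values were seen. Promoter sequences are RefSeq's on GRCm38.p6. Shared windows are 100-base windows of a gene's longest transcript that recur in another gene. A few genes that these rules name are not reported here.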

Additional observations from a re-analysis of the deposited data

Results flagged for a closer look

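In 10 of 224 groups of 4 livers, 1 liver lay apart from the other 3 by more than Dixon's 95% limit, a rate near the 1 in 20 that chance gives. Cyp3a41a stood at 168 CPM in MDKO 2 and at 14.45 to 22.69 CPM in the other MDKO livers. H1f4 was at 0.6938 CPM in MDKO 1 and at 2.165 to 2.333 CPM in the others. Per1 was at 23.15 CPM in MDKO 4 against 18.13 to 18.54 CPM, and Dnaja1 at 376.5 CPM in MDKO 2 against 472.7 to 475.3 CPM. MDKO 1 held the highest level of 3 cell type markers: Spp1, osteopontin, at 161.4 CPM against 53.89 to 70.14 CPM, Anxa5 at 155.1 CPM against 123.7 to 126.8 CPM, and Cd3g, of the T cell receptor complex, at 0.8788 CPM against 0.4607 to 0.4996 CPM. In the ASK1-MKO livers, Map2k7 was at 26.41 CPM in ASK1-MKO 3 against 23.07 to 23.33 CPM. Reln, a stellate cell marker, was at 128.6 CPM in ASK1-MKO 2 against 86.58 to 93.03 CPM, and Alas2 at 12.3 CPM there against 16.08 to 16.26 CPM.

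The difference of differences, MDKO minus ASK1-MKO less NFATc3-MKO minus Lyz2-Cre, was called for 72 of the 112 named genes by edgeR and for 50 of them also by voom with the MDKO and Lyz2-Cre pairs correlated. Over all 13309 genes tested, edgeR called 2153 (16.2%) and that voom fit 949. Most named genes were chosen by MDKO minus ASK1-MKO, which this contrast contains, so their higher share follows from the choice. The log2 values of 47 of the 50 follow, with edgeR adjusted p between 5.96e-05 and 0.0202. Among the linker and core histones, it was 5.77 for H1f3, 3.74 for H1f4, 2.77 for H3c15 and 2.54 for H1f2. Among P450s, bile acid enzymes and Bcl6, it was 4.43 for Cyp3a44, 3.13 for Cyp2b13, 3.05 for Cyp7a1, 2.73 for Cyp8b1 and 2.73 for Bcl6. Among sterol genes, it was 2.33 for Mvd, 1.43 for Hmgcs1, 1.15 for Dhcr7 and 0.99 for Mvk. Among heat shock genes, it was 4.62 for Hspa1a, 1.84 for Hspa8 and 1.25 for Dnaja1. Among other genes, it was 6.29 for Slc34a2, 3.31 for Pdxp, 3.27 for Lingo4, 2.76 for Ppp1r3b, 2.52 for Rcan1, 2.23 for Egr1, 2.03 for Bhmt, 1.31 for Prox1, 1.01 for Stat2, 1.01 for Aldh1b1, 0.86 for Nfe2l2 and 0.77 for Ccnd1. Negative values had the opposite sense. Among clock genes, it was -3.24 for Nr1d1, -2.44 for Dbp, -2.31 for Nr1d2, -1.49 for Per1 and -1.03 for Tef. Among genes of lipid and sterol handling, it was -2.21 for Angptl4, -1.52 for Abcg8 and -1.51 for Mlxipl. Among chaperones of the reticulum, it was -1.15 for Pdia4 and -0.87 for Hsp90b1. For the rest it was -3.32 for Rfx4, -3.03 for Tcp11l2, -2.99 for Wsb1, -2.97 for Smad9, -2.73 for Maff, -1.63 for Mup3, -1.03 for Cyp2c70, -0.85 for Cbs and -0.77 for Map2k7.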

How the results depend on the processing

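Of 1028 genes called, the total was 1031 with DESeq2 size factors, 1494 with DESeq2's test (869 lower, against 567), 843 without the filter on low counts, 1058 at a mean of at least 1 CPM and 1257 with the 2 groups alone. Voom with quality weights called 2571, 1263 higher and 1308 lower, and 3753 for the difference of differences, 1953 and 1800. An adjusted p under 0.1 gave 1706 (786 and 920). A 2-fold limit left 279 (164 and 115) and, for the difference of differences, 1006 (552 and 454). Of the alternatives to this comparison, a pair were chosen after seeing the data: without the Lyz2-Cre livers 733 genes were called (339 and 394), 722 of them among the 1028, and Map3k5, at -0.596, lost its call; with the MDKO and Lyz2-Cre pairs correlated 855 were called (387 and 468), 825 of them among the 1028, and 949 for the difference of differences (523 and 426). With single libraries left out, the total ran from 547 to 833, higher calls from 242 to 383, lower calls from 290 to 472, and the difference of differences from 1512 to 2291, 771 to 1124 higher and 741 to 1167 lower. Nfatc3 then ran from -0.073 to 0.056, and Map3k5 from -0.644 to -0.513. The replicate numbers do not pair MDKO with ASK1-MKO livers (correlations of -0.028, -0.037, 0.158 and -0.171); the replicate block gave 1358 calls (622 and 736), 2530 for the difference of differences, -0.037 for Nfatc3 and -0.599 for Map3k5, and lost none of the 86 calls among named genes. Of those 86, 55 kept their calls without any single library and 54 also under every other setting; the exception was Sult2a1, with the pairs correlated. The cause of these differences was not tested. No value reversed. MDKO 3, with 8912117 counts, limits what low genes can show.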

Other observations

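The genes here were chosen after their values were seen. Some genes of autophagy, by which cells digest their own contents, were lower in the MDKO livers. Of 32 genes of the autophagy machinery, 8 fell and none rose, 25 had negative log2 differences, and the median was -0.10 against 0.03 over all genes. Over all 13309 genes tested, 4.26% were called lower and 6242 had negative log2 differences. Ulk1, the kinase that starts the process, stood at 55.9, 53.8, 54.3 and 59.5 CPM in the ASK1-MKO livers and at 28.3, 34.2, 31.3 and 30.4 CPM in the MDKO livers (log2 -0.85 ± 0.12, edgeR adjusted p = 0.000633). Its partners Atg13 and Rb1cc1 fell by 1.10 and 0.92 on the log2 scale (edgeR adjusted p = 0.000987 and 0.000703). Gabarapl1, which coats the autophagosome, fell by 0.90 and Atg2a, a lipid carrier, by 0.64 (edgeR adjusted p = 0.00396 and 0.011). These 5 kept their calls without any single library, and 5 to 7 of the 8 did so in each case, fewest without ASK1-MKO 1, ASK1-MKO 2 or MDKO 3. Of 11 autophagy receptors, 2 fell and none rose. Retreg1, a receptor that directs endoplasmic reticulum to autophagy, stood at 186, 179, 102 and 171 CPM in the ASK1-MKO livers and at 59.6, 66.5, 57.2 and 58.5 CPM in the MDKO livers (log2 -1.40 ± 0.18, edgeR adjusted p = 0.000292). Nbr1 fell by 0.43 (edgeR adjusted p = 0.0388), a call lost with any single library left out except MDKO 3, and Sqstm1, which encodes p62, did not pass (edgeR adjusted p = 0.475). Flcn and Fnip1, of the folliculin complex that acts on the lysosome, fell by 1.01 and 1.19 (edgeR adjusted p = 0.000937 and 0.00364).

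Of 6 Ces2 carboxylesterase genes tested, 3 rose and the other 3 did not pass. Ces2c stood at 12.5, 11.6, 16.6 and 14.0 CPM in the ASK1-MKO livers and at 48.8, 53.7, 57.1 and 43.4 CPM in the MDKO livers (log2 1.89 ± 0.16, edgeR adjusted p = 1.15e-05). Ces2e rose by 0.66 and Ces2g by 0.53 (edgeR adjusted p = 0.00226 and 0.0147), the latter a call lost without ASK1-MKO 1, ASK1-MKO 2 or MDKO 3. All 3 lie within 5 Mb of the targeted gene Nfatc3, and the part of this in their difference was not tested. Of 3 aldehyde dehydrogenase genes of the Aldh1a family tested, 2 rose and Aldh1a3 did not pass (log2 -0.32 ± 0.36, edgeR adjusted p = 0.643). Aldh1a1 and Aldh1a7 rose by 1.15 and 1.34 (edgeR adjusted p = 0.000137 and 0.000145). Afp, alpha-fetoprotein of fetal liver, stood at 4.04, 2.87, 5.88 and 4.86 CPM in the ASK1-MKO livers and at 13.1, 35.5, 17.7 and 16.6 CPM in the MDKO livers (log2 2.24 ± 0.32, edgeR adjusted p = 0.000547). Klf9, a factor that glucocorticoids and thyroid hormone induce, stood at 248, 186, 166 and 134 CPM in the ASK1-MKO livers and at 45.4, 74.4, 57.2 and 71.0 CPM in the MDKO livers (log2 -1.56 ± 0.21, edgeR adjusted p = 0.000311). None of the genes that rose or fell in this paragraph overlapped between the groups.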
